A study of Mus musculus with 10 samples.

Results

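Malat1, Neat1, Miat, Meg3, Rian, Snhg11 and Kcnq1ot1 are long noncoding RNAs best known from the cell nucleus. They were picked by name for that property, with earlier results of these data known, and their symbols were matched to mouse Ensembl gene IDs. All 7 were found among the 45195 genes of the deposited matrix, and all 7 were among the 15712 genes tested. The RNA came from neurites, the processes that cultured cortical neurons push through a porous membrane, after the cell bodies on the upper side had been removed. These RNAs were followed through 4 groups of neurites, wild type (WT) and Cpeb1 knockout (KO), each naive or injured.

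Long noncoding RNAs of the nucleus work in several ways. Malat1 collects in nuclear speckles, bodies rich in splicing factors, and Neat1 is the scaffold on which paraspeckles form. Miat (Gomafu) is a neuronal nuclear RNA that binds splicing factors. Meg3 and Rian are read from the maternal copy of the imprinted Dlk1-Dio3 region and Kcnq1ot1 from the paternal copy of another imprinted region, where it silences its neighbours. Snhg11 is a host gene of small nucleolar RNAs that is abundant in the brain. The mature 3′ end of Malat1 and of the long form of Neat1 is cut by RNase P and lacks a normal poly(A) tail.

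The neurons were taken from E16.5 embryos of C57BL/6 mice, which served as wild type, or from Cpeb1 flox/flox mice on the same background. They grew on PET membranes with 3 µm pores, and every culture of either genotype received AAV2 with Cre driven by the ubiquitous CAG promoter at plating, so the WT groups carried the virus as well. The Cpeb1 protein binds a short U-rich element in mRNAs. On day 7 the underside of the injured cultures was scraped clean of neurites, and all cultures were lysed on day 8, which was 24 hours after the injury. Injured neurites were thus younger than naive ones, and injury cannot be told apart from neurite age. There were 3 WT naive, 3 WT injured, 2 KO naive and 2 KO injured libraries. The labels do not say that replicates were separate cultures, so the spread behind each p-value is that between these samples and may be technical. They give neither the sex of the embryos nor the exons that Cre removes.

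The targeted gene was looked at first. Cpeb1 was 7.16, 5.96 and 5.86 in the WT naive libraries and 1.65, 13.8 and 22.6 in the WT injured libraries. It was 5.97 and 0.356 in the libraries labelled KO naive and 1.14 and 3.15 in those labelled KO injured. The library labelled KO naive replicate 1 thus lay within the WT naive range, and WT injured replicate 1 lay within the KO injured range. The difference between genotypes was -1.25 ± 0.91 in naive and -1.71 ± 0.91 in injured neurites (log2, SE; limma adjusted p = 1 and 0.549). Directions between genotypes follow the labels throughout, and the main results are also given without these 2 libraries. WT injured replicate 3 stood apart as well, with the fewest genes at a value of 1 or more (12231, against up to 13143 elsewhere) and a mean correlation with the others of 0.839, the lowest of the 10. The estimated depth ranged from 21.4 to 28.04 in units of 1e6 fragments.

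Values are taken to be on the FPKM scale, fragments per kilobase of transcript scaled to the size of the library. Levels of different genes are set side by side as given, since how evenly the libraries captured each RNA was not tested. A difference between groups is that of their mean log2(value + 1), with the standard error (SE) of the limma fit over all 10 libraries. A difference is called when its adjusted p, over all genes tested, is under 0.05. In bulk samples such as these, fewer cells of a type and less RNA per cell cannot be told apart.

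The 7 RNAs spanned a wide range of levels. Over all 10 libraries the mean value was 3390 ± 1905 (SD, n = 10) for Malat1, 592 ± 140 for Meg3, 84.5 ± 23.2 for Rian, 16.2 ± 14.5 for Snhg11, 11.7 ± 2.92 for Miat, 6.80 ± 4.40 for Neat1 and 1.5 ± 0.52 for Kcnq1ot1. Malat1 was above Meg3, Meg3 above Rian and Rian above Snhg11 in 10 of 10 libraries. Snhg11 was above Miat in only 6 of 10 libraries, so these neighbours in the order did not differ beyond their spread. Miat was above Neat1 and Neat1 above Kcnq1ot1 in 9 of 10 libraries.

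Malat1 ranked between 9 and 51 among the 15712 genes tested and held 0.167% to 0.766% of the summed values of a library. Meg3 ranked between 107 and 284. Kcnq1ot1 ranked between 11132 and 12768, at a mean of 1.5 against a median of 7.73 for the mean values of all genes tested, so many tested genes were lower still. Whether these transcripts lay inside neurites or came from cell bodies or glia left on the membrane was not tested. Summed astrocyte markers were above 0 in every library. Summed microglial markers ran from 0 in WT naive replicate 1 to 18.4 in KO naive replicate 2, with Cx3cr1 and Tmem119 at 0 in all 10. Summed fibroblast markers ran from 0 in KO injured replicate 1 to 12.1 in WT naive replicate 3, with Lum at 0 in all 10.

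**Figure D1:**
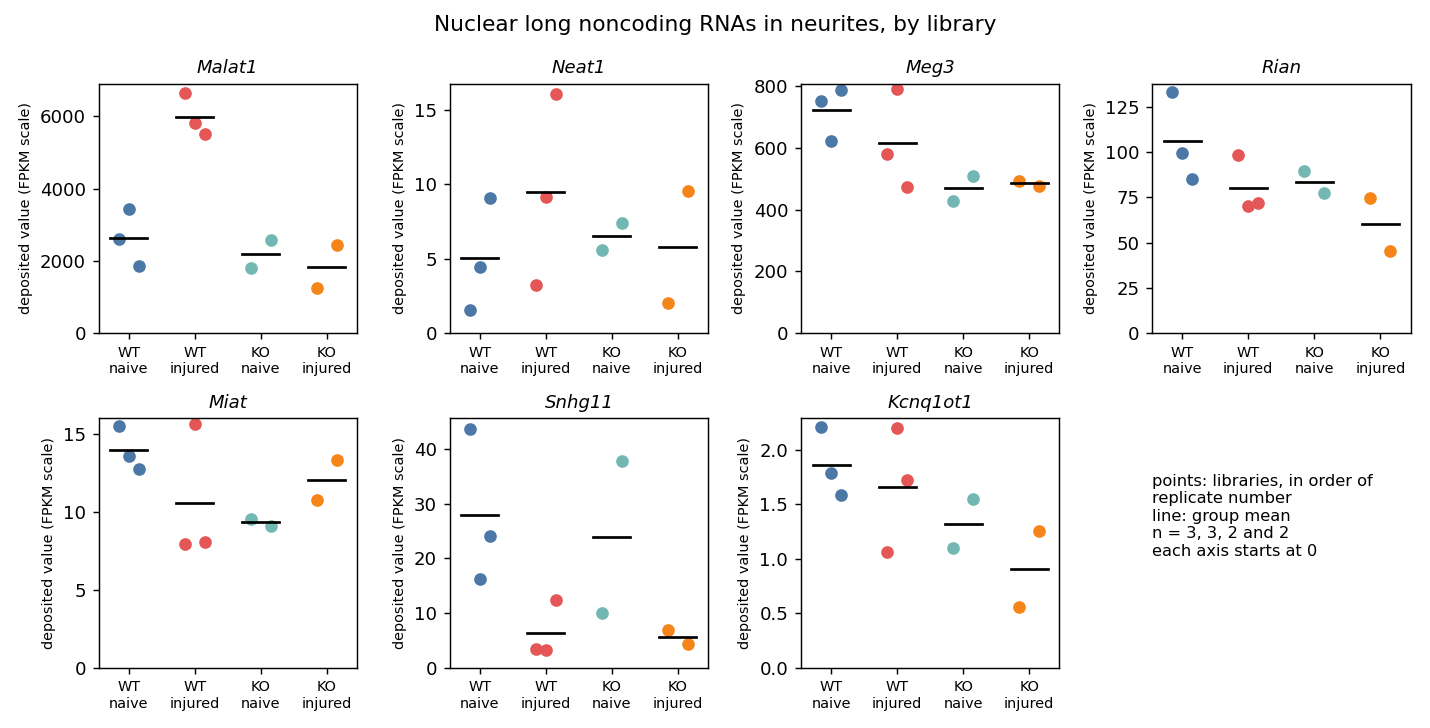
Deposited value (FPKM scale, each axis starting at 0) of each long noncoding RNA in every library, by group; points are libraries in order of replicate number and lines are group means (n = 3, 3, 2 and 2). The WT injured libraries of Malat1, between 5513 and 6633, lie above all other libraries, while Neat1 and Kcnq1ot1 overlap between naive and injured wild type.

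The libraries were primed with oligo(dT), which anneals to runs of A, so the A-rich stretches and 3′ ends of these RNAs bear on how they are measured. The sequences below were read from the GENCODE M21 transcripts (mm10), on the longest noncoding transcript of each gene, and are shown because they are the places such a primer could meet. Each 3′ end is that of the annotated transcript, which for Malat1 need not be the mature end cut by RNase P. Neat1 has 4 annotated transcripts, and only the end of the longest, of 20771 bases, was read. Capitals mark the longest run of A in the first 3 and the poly(A) signal AATAAA in the next 2, and the last window holds neither AATAAA nor its variant ATTAAA.
Malat1 A run: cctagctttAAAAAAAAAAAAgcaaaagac
Meg3 A run: caagaccAAAAAAAAAAAAAAAAcaaaaac
Rian A run: attgctcAAAAAAAAAAAAAAAccattgat
Malat1 3′ end: ttttatgaAATAAAaactaaatatctctca
Meg3 3′ end: gctttcAATAAAtttcttgttttaactaaa
Neat1 3′ end: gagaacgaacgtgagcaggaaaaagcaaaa

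The Malat1 run of 12 A lies at bases 6674 to 6685 of the 6983-base transcript, close to its annotated 3′ end, in the window chr19:5795979-5796008 on the minus strand. The annotated Malat1 end is chr19:5795690-5795719 and the annotated Neat1 end chr19:5824708-5824737, both on the minus strand. The Meg3 run of 16 A is in chr12:109545810-109545839 and its end is chr12:109571697-109571726, and the Rian run of 15 A is in chr12:109652222-109652251, all on the plus strand. Among 1156 tested long noncoding RNAs the median longest run was 6, and 10.8%, 4.84% and 5.88% held a run as long as that of Malat1, Meg3 and Rian. These 1156 were not matched for transcript length, which was 6983, 14548 and 8089 bases for the 3 RNAs, so the shares do not set length aside. The longest run was 7 in Neat1 and 4 in Miat. A run is a description of the sequence only, and whether reads began there was not tested.

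Because Cpeb1 is the gene deleted here, its element was searched on the transcript strand as TTTTAT or TTTTAAT. Malat1 held 6 matches (0.859 per kilobase), Neat1 15 (0.722), Meg3 7 (0.481), Miat 2 (0.218) and Kcnq1ot1 75 (0.806). Rian held 18 (2.23 per kilobase), a density above that of 93.7% of the 1156 long noncoding RNAs, whose median was 0.482 and of which 58.5% held at least 1 match. A match does not show that Cpeb1 binds.

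Malat1 was the 1 RNA of the set that was called, in 2 of the 5 comparisons, and it was no longer called in 17 and 9 of the 22 alternative settings of those 2. Whether it differed from the other 6 RNAs in this was not tested. It rose after injury of WT neurites, did not pass the test after injury of KO neurites, and was lower in injured knockout than in injured WT neurites. Malat1 (ENSMUSG00000092341) lies on chromosome 19, 5795690 to 5802672, minus strand (mm10), as a single exon block of 6983 bases. Its values were 2603, 3440 and 1856 in WT naive and 6633, 5818 and 5513 in WT injured libraries. They were 1797 and 2582 in KO naive and 1236 and 2424 in KO injured libraries. All 3 WT injured libraries were thus above every other library, and the naive and injured KO libraries overlapped.

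In wild type Malat1 rose from 2633 ± 792 to 5988 ± 579 (mean ± SD, n = 3 and 3). The log2 difference was 1.23 ± 0.26, a 2.34-fold rise (limma adjusted p = 0.0455). It was 1 of 7 RNAs called in this comparison, where 0.948% of all genes tested were called. At an unadjusted p under 0.05 there were 2 of 7, Malat1 and Snhg11, against 13.9% of all genes. Its adjusted p lay just under the threshold and was above it when any 1 WT library or either KO naive library was left out (limma adjusted p = 0.0562 to 0.191), with differences of 0.996 to 1.44. Without the 2 libraries at odds on Cpeb1 the difference was 1.15 ± 0.31 (limma adjusted p = 0.170), and without WT injured replicate 3 it was 1.28 ± 0.29 (limma adjusted p = 0.0823).

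In KO neurites Malat1 was 2190 ± 555 before and 1830 ± 840 after injury (SD, n = 2 and 2). The log2 difference was -0.32 ± 0.32 with a 95% interval of -1.0 to 0.37 (limma adjusted p = 0.982). None of the 7 RNAs was called by limma in this comparison, where 0.0573% of all genes were called. At an unadjusted p under 0.05 there was 1 of 7, Snhg11, against 5.73% of all genes.

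Between genotypes Malat1 was -0.24 ± 0.29 in naive neurites, with an interval of -0.87 to 0.38 (limma adjusted p = 1). No RNA of the set was called there, against 0.146% of all genes, and Meg3 was the 1 RNA of 7 at an unadjusted p under 0.05, against 3.76% of all genes. In injured neurites Malat1 was lower in the knockout by 1.79 ± 0.29 on the log2 scale, 0.290 times the WT level (limma adjusted p = 0.0200). That made 1 of 7 called, against 0.261% of all genes. The call ended without WT injured replicate 1 or 2 or KO injured replicate 1, where the difference was -1.71, -1.80 and -1.30 (limma adjusted p = 0.0930, 0.0522 and 0.302). Without the 2 libraries at odds on Cpeb1 it was -1.71 ± 0.33 (limma adjusted p = 0.139).

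Whether the injury response itself differed between genotypes was tested by the interaction, the KO response minus the WT response. For Malat1 it was -1.54 ± 0.41 (unadjusted p = 0.00246, limma adjusted p = 0.724), so a difference in response did not pass the test over all genes. No gene was called in the interaction (0%), while 979 of all genes tested (6.23%) and 1 of the 7 RNAs had an unadjusted p under 0.05. Both comparisons in which Malat1 was called use the same 3 WT injured libraries.

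**Figure D2:**
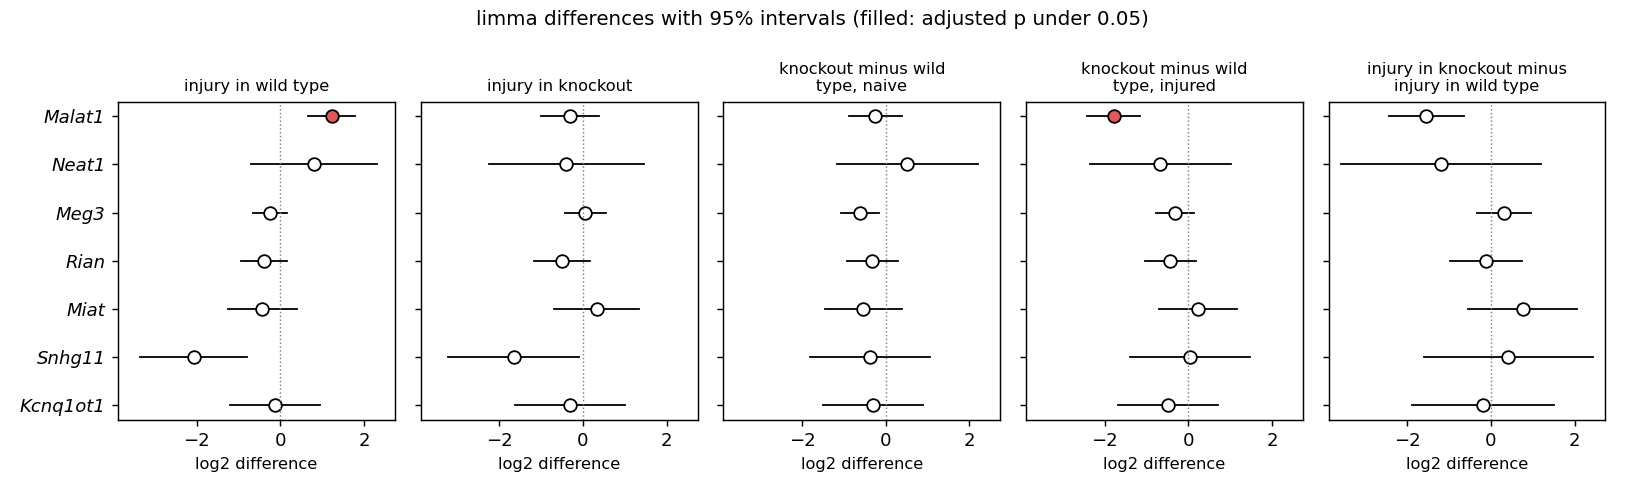
Log2 difference (x axis) of each long noncoding RNA in the 4 pairwise comparisons and the interaction; points are limma estimates, lines 95% intervals and filled points have an adjusted p under 0.05. Malat1 is filled in the injury comparison in wild type, at 1.23, and in the genotype comparison in injured neurites, at -1.79.

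Malat1 was also set against the other abundant RNAs of the set within each library. The log2 ratio of Malat1 to Meg3 was 1.79, 2.46 and 1.24 in WT naive and 3.51, 2.88 and 3.54 in WT injured libraries. It was 2.06 and 2.35 in KO naive and 1.32 and 2.35 in KO injured libraries. The WT injured libraries were above all others. The ratio differed by 1.48 after injury in wild type and by -1.48 between genotypes in injured neurites, each with an exact two-sided permutation p of 0.1. That is the smallest p that 3 against 3, or 2 against 3 libraries, can reach here. The ratio to Rian differed by 1.62 after WT injury, with the same p. For the less abundant Miat and Neat1 the difference was 1.70 and 0.25 (exact permutation p of 0.1 and 0.8). Between injured genotypes it was -2.04 for Miat and -0.96 for Neat1 (exact permutation p of 0.1 and 0.4). A ratio within a library shows unequal change only.

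A second gene model shares the Malat1 locus. Gm37376 (ENSMUSG00000102349), a 453-base model on the plus strand at 5801941 to 5802393 of chromosome 19, lies wholly inside Malat1 and covers bases 280 to 732 of it, 6.49% of its exon bases. Smart-seq2 libraries carry no strand, so reads of the pair cannot be told apart. Gm37376 was above Malat1 in 10 of 10 libraries, by 1.12 to 1.60 times. It rose by 1.17 ± 0.20 after injury in wild type and was lower by 1.46 ± 0.22 on the log2 scale in injured KO neurites (limma adjusted p = 0.0178 and 0.0141). Its difference after KO injury was -0.05 ± 0.25 (limma adjusted p = 1). Like Malat1 it was highest in the 3 WT injured libraries. Since the pair overlap, its values are not independent of those of Malat1.

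**Figure D3:**
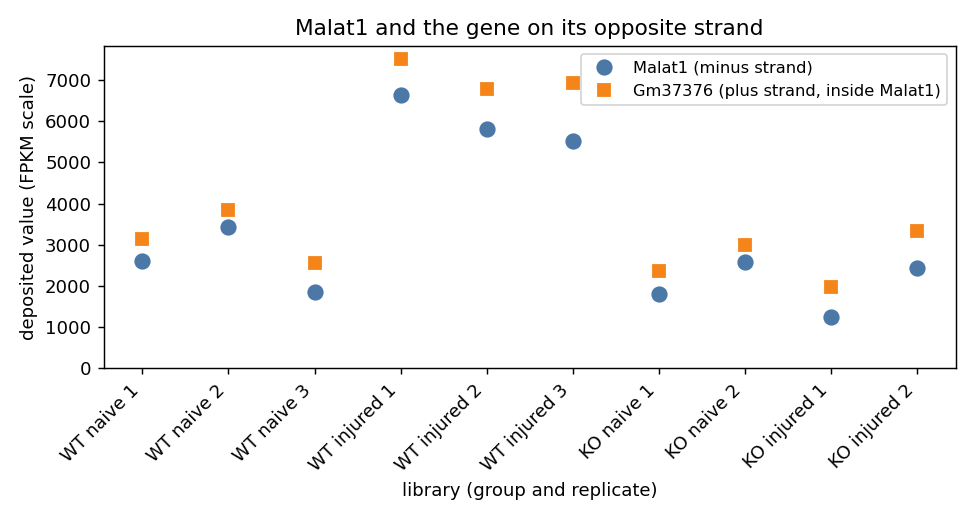
Deposited value (y axis, FPKM scale from 0) of Malat1 (circles) and of the overlapping model Gm37376 (squares) in each of the 10 libraries (x axis). Both peak in the 3 WT injured libraries, and Gm37376 is above Malat1 in all 10.

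Marker levels moved with some of these groups too. Summed astrocyte markers (10 of 10 listed genes measured, none at 0 everywhere) were 403 to 553 in WT naive and 647 to 1487 in WT injured libraries, highest in replicate 3. They were 501 to 575 in KO naive and 730 to 831 in KO injured libraries, so they were higher after injury in both genotypes. Summed interneuron markers were 455 to 713 in WT naive and 57.0 to 90.3 in WT injured libraries, and 489 to 857 and 65.4 to 113 in the knockout. Projection neuron markers were 240 to 264, 221 to 306, 291 to 320 and 327 to 379 in the 4 groups in the same order. Among the astrocyte genes Sox9, a glial transcription factor gene, rose after WT injury by 1.87 ± 0.30, and among the radial glia genes Vim, an intermediate filament gene, by 1.88 ± 0.39 (limma adjusted p = 0.0142 and 0.0435). In the knockout they were at 0.50 ± 0.37 and 0.83 ± 0.48 (limma adjusted p = 0.9747 and 0.9329). Sox9 was the 1 gene of 10 and Vim the 1 gene of 9 called on its list after WT injury (0.948% of all genes), with 9 and 7 above 0. Of the 10 interneuron markers 5 were called lower after WT injury and 1 after KO injury (0.948% and 0.0573% of all genes). All 10 were below 0 in both. Summed radial glia markers overlapped between naive and injured libraries. They were 2290 to 2818 and 2578 to 4814 in wild type, and 3145 to 4244 and 3793 to 3852 in the knockout.

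Summed neurite markers ran opposite to the astrocyte sums. Their sum (7 of 7 measured, none at 0 everywhere) was 2655 to 3036 in WT naive and 1742 to 2357 in WT injured libraries, and 3025 to 3442 and 2316 to 3020 in the knockout. Of the 7 genes, 5 were below 0 and 2 above 0 after injury in each genotype, and limma called none. Tubb3, a neuronal tubulin, had a mean of 1052 in WT naive and 511 in WT injured libraries, at -1.13 ± 0.26, and of 1196 and 1109 in the knockout, at -0.13 ± 0.32 (limma adjusted p = 0.0617 and 1). Within the WT injured libraries Malat1 was lowest in replicate 3, where summed astrocyte markers were highest and summed neurite markers lowest. The part of these cell types in the Malat1 difference was not tested.

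Neat1 (ENSMUSG00000092274) lies near Malat1 on chromosome 19, 5824708 to 5845478, and is transcribed from the same strand. Its values were 1.53, 4.45 and 9.07 in WT naive and 3.21, 9.15 and 16.0 in WT injured libraries. They were 5.61 and 7.38 in KO naive and 2.03 and 9.55 in KO injured libraries. Every pair of groups overlapped, and the highest library was up to 5.91 times the lowest within a single group. The difference after WT injury was 0.80 ± 0.70, with an interval of -0.71 to 2.30 (limma adjusted p = 0.662). Between injured genotypes it was -0.67 ± 0.78 (limma adjusted p = 0.782). Neat1 held 0.000189% to 0.00137% of the summed values, and Malat1 was 205 to 2070 times as high in the same library.

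Of the protein genes flanking Malat1 and Neat1, 15 of 18 were tested and limma called none after WT injury, with 5 at an unadjusted p under 0.05 (13.9% of all genes, as above). Their median difference was -0.02, against 0.01 for all genes. Sipa1, a regulator of Rap GTPases, had a value of 1.94 ± 0.64 and the membrane-associated protein gene Frmd8 one of 1.36 ± 0.53 (limma adjusted p = 0.208 and 0.277). Pcnx3, of the pecanex family, was at -1.26 ± 0.45 and Cdc42ep2, an effector of the GTPase Cdc42, at -1.78 ± 0.77 (limma adjusted p = 0.240 and 0.327). Neighbours thus had values on both sides of 0.

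Protein genes of the 2 nuclear bodies were counted beside their RNAs, on lists chosen with earlier results of these data known. Of 35 nuclear speckle genes, all tested, 2 rose after WT injury, none fell, and 31 had a difference above 0. Their median was 0.46, against 0.01 for all genes. Over all genes tested 0.948% were called. At an unadjusted p under 0.05 there were 15 of the 35, against 13.9% of all genes. Sf3b1, a core splicing factor of the U2 snRNP, rose by 0.95 ± 0.20 and Srsf2, a splicing regulator that marks speckles, by 0.80 ± 0.17 (limma adjusted p = 0.0433 and 0.0455). Srsf6, a related splicing regulator, had a value of 1.07 ± 0.24 and Clk1, a kinase of such regulators, one of 1.06 ± 0.25, just over the threshold (limma adjusted p = 0.0593 and 0.0756).

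Sf3b1 went from a mean of 57.3 to 112 in wild type and was 72.2 and 64.1 in naive and injured KO neurites. Srsf2 was 196, 178 and 164 in WT naive and 350, 264 and 330 in WT injured libraries, and 155, 169, 190 and 221 in the 4 KO libraries. The WT injured libraries of Srsf2 were above all others. The summed level of the 35 genes was 2286 to 2474 in WT naive and 3177 to 3625 in WT injured libraries, 2452 to 2591 in KO naive and 2534 to 2681 in KO injured libraries.

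In KO neurites the median of the speckle genes after injury was 0.05 (all genes -0.09), with 20 above 0, none called and 3 at an unadjusted p under 0.05 (5.73% of all genes). In injured neurites 27 of 35 were below 0 in knockout against wild type, with a median of -0.38 (all genes -0.05), none called by limma and 11 at an unadjusted p under 0.05 (10.5% of all genes). In the interaction 30 of 35 were below 0, none was called and 8 had an unadjusted p under 0.05 (6.23% of all genes).

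These contrasts between the genotypes depended on the scaling of the libraries. With undivided values and with totals without ribosomal RNA, 28 and 29 speckle genes were above 0 after KO injury, with medians of 0.25 and 0.29, against 0.28 and 0.34 after WT injury. Between injured genotypes 20 and 21 were then below 0 (medians of -0.14 and -0.22), and in the interaction 19 and 19 (medians of -0.10 and -0.12). Over all alternative settings the WT median ranged from 0.28 to 0.50 with 28 to 33 genes above 0, and the KO median from 0.04 to 0.29 with 18 to 29 above 0. No speckle gene was called after WT injury in 17 of 22 settings, and 0 to 3 rose. The number was 0 without WT injured replicate 3 and without the 2 libraries at odds on Cpeb1, where 29 and 33 genes were above 0. Summed astrocyte markers were higher and summed neurite markers lower in the same WT libraries, as given above, and their part in these values was not tested.

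**Figure D4:**
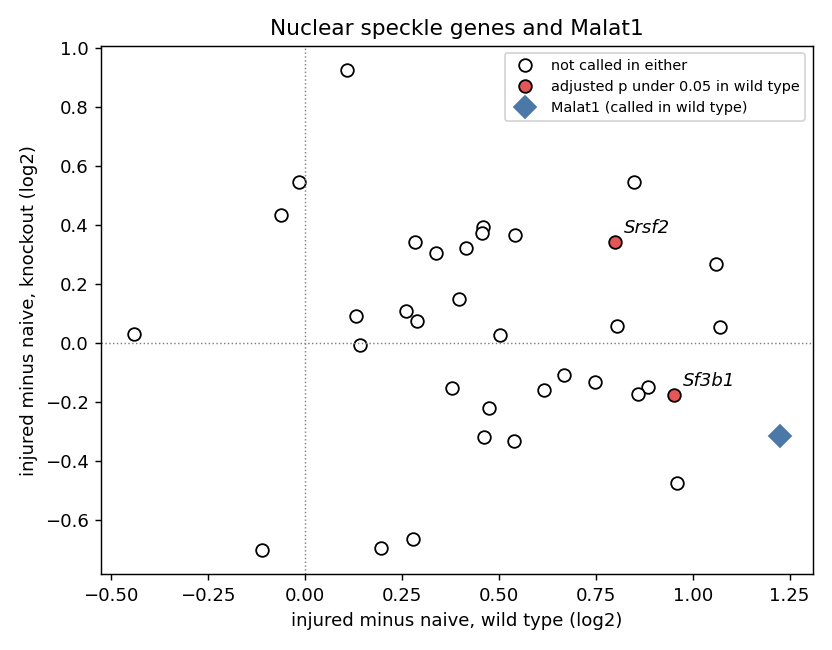
Log2 difference after injury in wild type (x axis) and in knockout (y axis) of 35 nuclear speckle genes (circles, filled where the adjusted p was under 0.05 in wild type) and of Malat1 (diamond). Most circles, 31 of 35, lie right of 0 while 20 lie above 0, a count that became 28 with undivided values and 29 with totals without ribosomal RNA; the axes share no libraries.

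The paraspeckle proteins that assemble on Neat1 were counted in the same way, with no test between these genes and the speckle genes, which have Srsf10 in common. Of 30 tested, limma called none after WT injury and 2 had an unadjusted p under 0.05 (13.9% of all genes). Of the 30, 15 were above and 15 below 0, with a median of 0.02. Over the alternative settings the median ranged from -0.16 to 0.13 and the number above 0 from 7 to 19. Hnrnph3, an RNA-binding protein of paraspeckles, had a value of 0.84 ± 0.25 and Cirbp, the cold-inducible RNA-binding protein, one of -0.57 ± 0.29 (limma adjusted p = 0.163 and 0.411). Srsf10, on both lists, was at 0.89 ± 0.24, and Ss18l1, a subunit of neuronal chromatin remodelling complexes, at -1.03 ± 0.51 (limma adjusted p = 0.126 and 0.394).

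Miat (ENSMUSG00000097767, chromosome 5, 112213228 to 112229395, minus strand) stayed within a narrow band. Its values were 15.6, 13.6 and 12.8 in WT naive and 7.97, 15.6 and 8.10 in WT injured libraries. They were 9.54 and 9.14 in KO naive and 10.8 and 13.3 in KO injured libraries. WT injured replicate 2 was just above the naive range while replicates 1 and 3 were below it. Over all libraries the highest value was 1.96 times the lowest.

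The Miat difference was -0.43 ± 0.38 after WT injury and 0.33 ± 0.47 after KO injury (limma adjusted p = 0.665 and 0.989). KO naive libraries were below all WT naive libraries, at -0.53 ± 0.43 (interval -1.46 to 0.39, limma adjusted p = 1). A plus-strand model, Gm26953, shares 24.3% of the Miat exon bases and was listed at 0 in every library. Of 13 splicing regulators of neurons, among them reported partners of Miat, none was called by limma after WT injury. At an unadjusted p under 0.05 there were 6 (13.9% of all genes), and the median of the 13 was -0.12. Ptbp1, a repressor of neuronal exons, was at 1.32 ± 0.35 and Srsf1, also on the speckle list, at 0.96 ± 0.23. Nova2 and Rbfox3, which promote neuronal splicing, were at -1.01 ± 0.40 and -0.77 ± 0.30 (limma adjusted p = 0.0775 to 0.292 for these 4).

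Meg3 (ENSMUSG00000021268, chromosome 12, 109541001 to 109571726, plus strand) varied least of the 7. Its values were 754, 624 and 787 in WT naive and 582, 791 and 473 in WT injured libraries. They were 430 and 508 in KO naive and 494 and 476 in KO injured libraries. Over all libraries the highest was 1.84 times the lowest. The opposite-strand model Gm26906 shares 6.79% of its exon bases and was listed at 0 in every library. Injury moved Meg3 by -0.25 ± 0.19 in wild type and 0.05 ± 0.23 in knockout (limma adjusted p = 0.590 and 1), intervals of -0.66 to 0.15 and -0.44 to 0.55.

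Both KO naive libraries were below all WT naive libraries of Meg3. The difference was -0.62 ± 0.21 with an interval of -1.07 to -0.17 (unadjusted p = 0.0112), and it did not pass the test over all genes (limma adjusted p = 1). In injured neurites it was -0.31 ± 0.21 (limma adjusted p = 0.636), and the groups overlapped. Over the alternative settings the naive difference ranged from -0.85 to -0.50 and was not called in any.

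Rian (ENSMUSG00000097451, also Meg8) lies downstream of Meg3 at 109603940 to 109661716 of chromosome 12, and 13 small nucleolar RNA and 4 microRNA genes are annotated inside it on the same strand. Its values were 133, 99.4 and 85.0 in WT naive and 98.3, 70.0 and 71.9 in WT injured libraries. They were 89.4 and 77.6 in KO naive and 74.6 and 45.6 in KO injured libraries. Naive and injured wild type overlapped, while both injured KO libraries were below both naive ones. The difference was -0.39 ± 0.25 in wild type and -0.51 ± 0.31 in knockout (limma adjusted p = 0.526 and 0.937).

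Meg3 and Rian are thought to belong to a shared maternal transcript that also includes Mirg, a microRNA host. The ratio of Meg3 to Rian ran from 4.81 to 11.3 over the 10 libraries without a change that passed a test (exact permutation p of 0.333 to 0.7 in the 4 comparisons, of which 0.333 is the smallest that 2 against 2 libraries can give). Mirg was 7.82, 8.52 and 8.61 in WT naive, 2.74, 13.6 and 8.49 in WT injured, 2.4 and 9.35 in KO naive and 1.19 and 2.18 in KO injured libraries. Its injured KO libraries were below all WT injured ones, at -1.61 ± 0.68 (limma adjusted p = 0.436). The paternal gene Dlk1, a membrane ligand, was between 0 and 1.84 in all libraries, and Rtl1, a retrotransposon-like gene, was at -0.69 ± 0.57 after WT injury (limma adjusted p = 0.354 for Dlk1 and 0.637 for Rtl1). Of 8 tested genes of the region, which include Meg3 and Rian themselves, none was called by limma after WT injury, and the median was -0.22. At an unadjusted p under 0.05 there was 1, Dlk1 (13.9% of all genes). Dlk1 reached the level needed for testing only in WT injured libraries, so its part in this count is not independent of where it is high.

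Kcnq1ot1 (ENSMUSG00000101609, chromosome 7, 143203458 to 143296549, minus strand) is annotated as a single unspliced transcript of 93092 bases. Its values were 2.21, 1.79 and 1.58 in WT naive and 1.06, 2.20 and 1.73 in WT injured libraries. They were 1.09 and 1.55 in KO naive and 0.559 and 1.25 in KO injured libraries. Low values here rested on many reads, an estimated 1550 to 5440 fragments per library over this length, if the values are FPKM. Its longest run of A has 41 bases.

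The WT injury difference of Kcnq1ot1 was -0.12 ± 0.50 (interval -1.20 to 0.96, limma adjusted p = 0.948), and that between injured genotypes was -0.48 ± 0.56 (limma adjusted p = 0.779). KO naive libraries were below all WT naive ones, at -0.30 ± 0.56 (limma adjusted p = 1). Values this close to the added 1 make differences of log2(value + 1) smaller than those of the values themselves. Over the alternative settings the difference ranged from -0.85 to -0.17 between injured genotypes and from -0.47 to -0.12 between naive ones. Kcnq1, the potassium channel gene it runs antisense to, was listed at 0 in every library. Of 8 tested genes of this imprinted region none was called by limma after WT injury. At an unadjusted p under 0.05 there were 3 (13.9% of all genes). These were Cd81, a tetraspanin (0.60 ± 0.23), Ascl2, a transcription factor gene listed at 0 in every group but WT injured, and Cdkn1c, a cell-cycle inhibitor (0.93 ± 0.41), with limma adjusted p of 0.273, 0.294 and 0.336. Ascl2 was tested only because of its WT injured libraries, so its part in this count is not independent of where it is high. Osbpl5, a lipid-binding protein gene, was at -0.83 ± 0.40 (limma adjusted p = 0.380).

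Snhg11 (ENSMUSG00000044349, chromosome 2, 158375638 to 158386145, plus strand) had the largest difference of the set after injury without passing the test. GENCODE types this gene as protein coding, and 2 small nucleolar RNA genes lie inside it. Its values were 43.6, 16.1 and 24.1 in WT naive and 3.49, 3.29 and 12.4 in WT injured libraries. They were 9.93 and 37.8 in KO naive and 6.96 and 4.36 in KO injured libraries. In both genotypes every injured library was below every naive one.

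Snhg11 went from 27.9 ± 14.1 to 6.39 ± 5.20 in wild type (SD, n = 3 and 3), a difference of -2.07 ± 0.59 (unadjusted p = 0.00398, limma adjusted p = 0.147). In knockout it went from 23.8 ± 19.7 to 5.66 ± 1.84 (n = 2 and 2), a difference of -1.66 ± 0.72 (limma adjusted p = 0.852). The genotypes differed by -0.38 ± 0.66 in naive and 0.04 ± 0.66 in injured neurites (limma adjusted p = 1 and 1), and the interaction was 0.42 ± 0.94 (limma adjusted p = 0.960). Over all alternatives the WT difference ranged from -2.61 to -1.54 (limma adjusted p = 0.0758 to 0.448). The summed interneuron markers given above were lower in the same injured libraries of both genotypes, and their part in the Snhg11 values was not tested.

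Groups that do not overlap were common among all genes. After WT injury 2 of the 7 RNAs did not overlap (Malat1 higher, Snhg11 lower), against 17.8% of all genes. After KO injury there were 3 (Miat higher, Rian and Snhg11 lower), against 35.5%. Between genotypes there were 3 in naive neurites, Meg3, Miat and Kcnq1ot1, all lower in the knockout (22.6% of all genes), and 1 in injured neurites, Malat1 (21.9%). With so few RNAs these shares do not set the group apart from other genes.

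Other noncoding RNAs were counted for comparison. Of 15 further nuclear long noncoding RNAs tested, none was called by limma after WT injury. At an unadjusted p under 0.05 there were 3 (13.9% of all genes). The median of the 15 was 0.16, which ranged from -0.03 to 0.22 over the alternative settings. Jpx, an activator of Xist, was at 2.42 ± 0.59 and Firre, an X-linked nuclear organising RNA, at 1.67 ± 0.50 (limma adjusted p = 0.0836 and 0.170). Firre, among those 3, reached the level needed for testing only in WT injured libraries. Dlx6os1 (Evf2), an RNA of the interneuron lineage, was at -2.03 ± 0.63 and Dleu2, a microRNA host, at 0.80 ± 0.51 (limma adjusted p = 0.184 and 0.521). Of the small nuclear RNAs 2 of 14 were tested and Rn7sk, which holds back transcription elongation, rose by 4.67 ± 0.55 (limma adjusted p = 0.00176). Its values were 23.4, 21.5 and 7.31 in WT naive, 589, 263 and 481 in WT injured, 13.5 and 7.08 in KO naive and 57.4 and 280 in KO injured libraries. Scarna13, a guide RNA of Cajal bodies, was at -1.54 ± 0.86 (limma adjusted p = 0.450).

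Of 17 tested long noncoding RNAs of the cytoplasm or hosts of small nucleolar RNAs, none was called by limma after WT injury. At an unadjusted p under 0.05 there were 7 (13.9% of all genes). The median of the 17 was 0.44 in wild type (0.34 to 0.61 over the alternative settings) and 0.05 in knockout. The knockout median had no stable sign, at -0.39 without KO injured replicate 2, -0.15 without KO naive replicate 2 and 0.35 without KO injured replicate 1, and it was 0.24 with undivided values and 0.29 with totals without ribosomal RNA. The host genes Zfas1, Snhg12 and Snhg3 were at 1.68 ± 0.37, 1.53 ± 0.41 and 1.5 ± 0.44, and Snhg20 was at -0.98 ± 0.27 (limma adjusted p = 0.0553, 0.113, 0.158 and 0.133). Of the 17, 10 were above and 7 below 0 after WT injury. Snhg11, also a host, thus had a value of the same sign as Snhg20 and of the opposite sign to Zfas1, Snhg12 and Snhg3.

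Across the 10 libraries each RNA was set beside 7394 named genes of at least median level, by Pearson correlation of log2(value + 1), a description in which the genes share the libraries and their groups. Malat1 was most like Pfkfb3, a regulator of glycolysis (0.946), Ints13, an Integrator subunit (0.926), and Ktn1, a kinesin-binding protein gene (0.924), and Neat1 most like Zfp110 (0.911), Sulf2 (0.904) and the nuclear export receptor gene Xpo1 (0.902). Miat was most like Smarca1 (0.891), Mlx (0.880) and Mapk11 (0.878), and Meg3 most like Nmt1 (0.876), Pfkp (0.872) and Letmd1 (0.847). For Rian the genes were Asns (0.924), Fam168a (0.907) and Astn1 (0.886), for Snhg11 Sept3 (0.929), Elmo1 (0.912) and Kifc2 (0.905), and for Kcnq1ot1 Carm1 (0.899), Inpp5b (0.892) and Agap1 (0.882). Neat1 and Kcnq1ot1, below the median level, were not among the genes searched.

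Between RNAs of the set the coefficient was highest for Meg3 with Miat (0.672) and Meg3 with Kcnq1ot1 (0.627) and lowest for Neat1 with Rian (-0.637). Rian with Snhg11 was at 0.526. Malat1 ranged from -0.341 with Snhg11 to 0.495 with Kcnq1ot1, with 0.318 for Neat1 and 0.230 for Meg3.

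**Figure D5:**
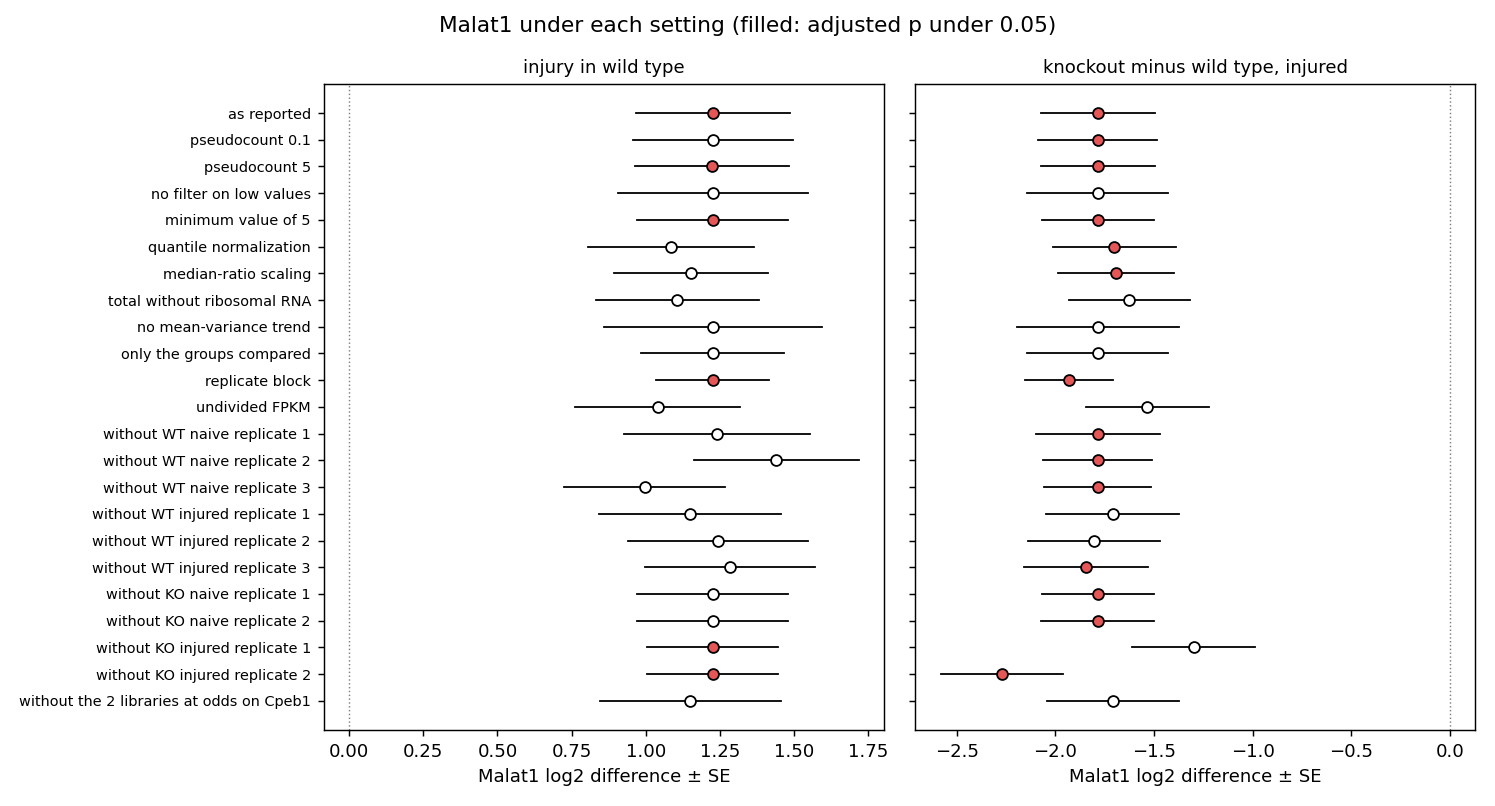
Log2 difference ± SE (x axes) of Malat1 in the 2 comparisons in which it was called, under the reported analysis and each alternative setting (rows); filled points have an adjusted p under 0.05. The sign held in every row, from 0.996 to 1.44 after WT injury and from -2.27 to -1.30 between injured genotypes, while many points are open.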

How the data were processed

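RNA from neurites was made into Smart-seq2 libraries per the labels' protocols, with 1 ng of input RNA, 14 PCR cycles, 500 pg of cDNA for tagmentation and 11 further cycles. STAR 2.4.2a and RSEM 1.2.21 are named in the submitters' processing notes. The deposited values of the authors were taken as FPKM divided by 1 factor per library (0.811 to 1.11), which rests on regular steps in the values and is not stated. TPM with rows left out would look alike. Depth is an estimate from such steps, so no counting intervals are given. Gene names, coordinates and sequences came from GENCODE M21 (mm10), which matched 44548 of 45195 IDs.

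Values were transformed to log2(value + 1) and compared with limma 3.58.1 in R 4.3.3, with 4 group means in a fit of all 10 libraries and a mean-variance trend. Genes below 1 in all but 1 library or in every library were left out. Adjusted p-values are Benjamini-Hochberg values over 15712 genes, and the test was checked on simulated data. The named genes were the 7 RNAs, the 3 genes most like each, the 4 of each list with the smallest p after wild-type injury, Cpeb1, Rn7sk and overlapping genes. Mirg and Dlk1 were singled out by place in the imprinted region. The members and lists were chosen with earlier results of these data known. Alternatives changed the pseudocount, filter, scaling, trend, samples or block, and 2 of them, the undivided values and leaving out the 2 libraries at odds on Cpeb1, were chosen after seeing the data.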

Additional observations from a re-analysis of the deposited data

How the results depend on the processing

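The number of these RNAs called after wild-type injury, 1 (Malat1), became 0 with a pseudocount of 0.1, no filter, quantile normalization, median-ratio scaling, totals without ribosomal RNA, no mean-variance trend, only the groups compared, undivided values and without the 2 libraries at odds on Cpeb1 (limma adjusted p = 0.0586 to 0.251). That between injured genotypes, also 1, became 0 with no filter, totals without ribosomal RNA, no trend, only the groups compared, undivided values and without those 2 libraries (limma adjusted p = 0.0516 to 0.411). With 1 library left out both ranged from 0 to 1. Malat1 kept its sign in all 22 alternatives of each, and was no longer called in 17 and 9 of them. With no filter more genes were tested, and with only the groups compared fewer libraries set the spread. The cause was not tested for the other settings. Over all genes the number called after wild-type injury was 149, against 25 with no filter, 77 without a trend, 17 with only the groups compared and 35 to 311 with 1 library left out. In the interaction it was 0, against 13 with no filter and 3 without a trend.

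Without the 2 libraries at odds on Cpeb1 these uncalled differences turned: Kcnq1ot1 after wild-type injury (0.0526), Meg3 after knockout injury (-0.0671), Malat1 and Snhg11 between naive genotypes (0.0169 and 0.535), Snhg11 between injured genotypes (-0.22), and Rian and Snhg11 in the interaction (0.14 and -0.75). Snhg11 between injured genotypes was -0.0161 with a pseudocount of 5. Rian in the interaction was 0.10 with quantile normalization, 0.0548 with median-ratio scaling, 0.24 with totals without ribosomal RNA and 0.26 undivided, and Kcnq1ot1 was 0.0105 and 0.0263 in the last 2. With 1 library left out Kcnq1ot1 ranged from -0.26 to 0.0526 after wild-type injury. After knockout injury Malat1 ranged from -0.80 to 0.17, Neat1 from -1.30 to 0.50 and Meg3 from -0.0671 to 0.17. Between naive genotypes Malat1 ranged from -0.51 to 0.0169 and Snhg11 from -1.29 to 0.54, and between injured genotypes Neat1 from -1.57 to 0.23 and Snhg11 from -0.25 to 0.57. In the interaction Rian ranged from -0.46 to 0.24, Snhg11 from -0.50 to 1.33 and Kcnq1ot1 from -0.45 to 0.0825. Undivided values moved the median of all genes from 0.01 to -0.13 after wild-type injury and from -0.05 to 0.13 between injured genotypes.

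Libraries of the same number did not vary together (correlations of -0.05 to 0.04 over 13 pairs, against -0.05 to 0.05 over 24 pairs of other numbers). With a replicate block Malat1 was at 1.23 and -1.93 (limma adjusted p = 0.0133 and 0.00232), 1 RNA was called in each of these comparisons and 0 in the others, and 146, 5, 20, 30 and 0 genes were called in all 5 comparisons against 149, 9, 23, 41 and 0. Groups of 2 and 3 libraries limit what can be told, as does depth known only as an estimate.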
